A study of Mus musculus with 8 samples.

Results

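Interleukin 15, the 3 chains of its receptor and 6 genes by which natural killer (NK) cells are known were followed in the uterus with and without Nr2f2. The 10 genes were Il15, Il15ra, Il2rb, Il2rg, Gzma, Gzmb, Prf1, Ncr1, Klrb1c and Eomes, taken by symbol from the 24963 genes of the table. They were chosen from the values of this same contrast, so their levels and the counts of them past a threshold are a description, and no p-value is given for them. Whole uteri were taken at gestation day (GD) 3.5 from C57B6/J females, and 4 libraries of each genotype were made. The labels number them as separate samples and do not say that each came from its own mouse, so the spread between libraries may in part be technical. The Nr2f2 f/f mice, labelled WT, carry floxed Nr2f2 alleles and no Cre. The Nr2f2 d/d mice carry the same floxed alleles and a Cre knocked into 1 Pgr allele, which removes Nr2f2 from cells that express the progesterone receptor. All d/d mice thus also carry 1 Pgr allele disrupted by Cre, and this and the loss of Nr2f2 cannot be told apart. The labels give an age of 8 weeks at mating, and no agent was given. According to the study's methods the mates were vasectomized males, so both genotypes were pseudopregnant and no embryo was present. RNA of a whole organ holds epithelium, stroma, muscle, vessels and leukocytes at once, so fewer cells of a type and less RNA per cell cannot be told apart.

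IL15 is the cytokine on which NK cells depend for survival, growth and cytolytic maturation. A producing cell, in the uterus mainly of the stroma or a macrophage, displays IL15 on its own IL15 receptor alpha chain, encoded by Il15ra. The displayed cytokine engages the beta chain (Il2rb) and the common gamma chain (Il2rg) of a neighbouring lymphocyte, where JAK1 and JAK3 phosphorylate STAT5. NK cells are the most abundant lymphocytes of the early pregnant mouse uterus, where they help remodel the arteries of the decidua. Their granules hold granzymes, proteases that trigger death of a target cell, and perforin, which opens its membrane to them.

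Levels are given as FPKM, a fragment count divided by gene length and by library size, as deposited. The libraries held 61350000 to 92550000 fragments as reckoned from genes of a single exon, and the Nr2f2 d/d libraries were the deeper (median 81000000 against 62300000). Even the gene with the fewest fragments, Klrb1c, had about 312 to 2341 per library, so counting error was small beside the spread between libraries. Nr2f2 itself, the targeted gene, stood at 24.1 ± 1.8 FPKM for Nr2f2 f/f, against 8.93 ± 1.36 for Nr2f2 d/d (SD, n = 4), in the direction of the labels in all 8 libraries. Nr2f2 f/f replicate 2 had a mean correlation over genes of 0.944 with the others of its group, against 0.966 to 0.97 for those. Nr2f2 d/d replicate 3 was the least correlated of its group by a small margin only, at 0.96 against 0.965 to 0.978. Values without both of these libraries are given beside those of all 8 for each of the 10 genes. All 10 NK cell markers listed for this check were detected in every library, from Tbx21 at 0.757 to 2.42 FPKM to Gzma at 6.46 to 150 FPKM. Of the T cell markers, Cd8a, Cd8b1, Cd5 and Cd6 stayed under 0.5 FPKM in every library, while Cd3g, the highest, lay at 1.11 to 7.52 FPKM.

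The genotypes differed most in the ligand and in the granule contents (see the plot of all 10 genes by library). Il15 was 2.8-fold, Gzmb 3.33-fold and Gzma 6.8-fold higher in mean FPKM in Nr2f2 d/d, with no overlap between the groups. The ratio for Gzma was 3.99 without Nr2f2 d/d replicate 4. Prf1 was 2.43-fold higher in mean, with 3 of 4 Nr2f2 d/d libraries above every Nr2f2 f/f library. The other 6 genes, Il15ra, Il2rb, Il2rg, Ncr1, Klrb1c and Eomes, overlapped between the genotypes, with ratios of means of 0.91 to 1.36. All 10 genes passed the filter on low values. In the limma fit over all 14323 genes tested, 2 of the 10 passed an adjusted p under 0.05 as higher in Nr2f2 d/d and 0 as lower, against 1.09% and 1.53% of all genes. They were Il15, which also passed in all 8 fits that left out 1 library, and Gzmb, which passed in 2 of these 8, those without replicate 3 of either genotype. Gzma passed in 2 of them, without Nr2f2 d/d replicate 3 and without replicate 4, and it passed beside Il15 and Gzmb without both of the least correlated libraries. Groups without overlap were seen for 3 of the 10 as higher and 0 as lower, against 5.49% and 9.91% of all genes. As the genes were chosen from this contrast, these counts are given as a description only.

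**Figure D1:**
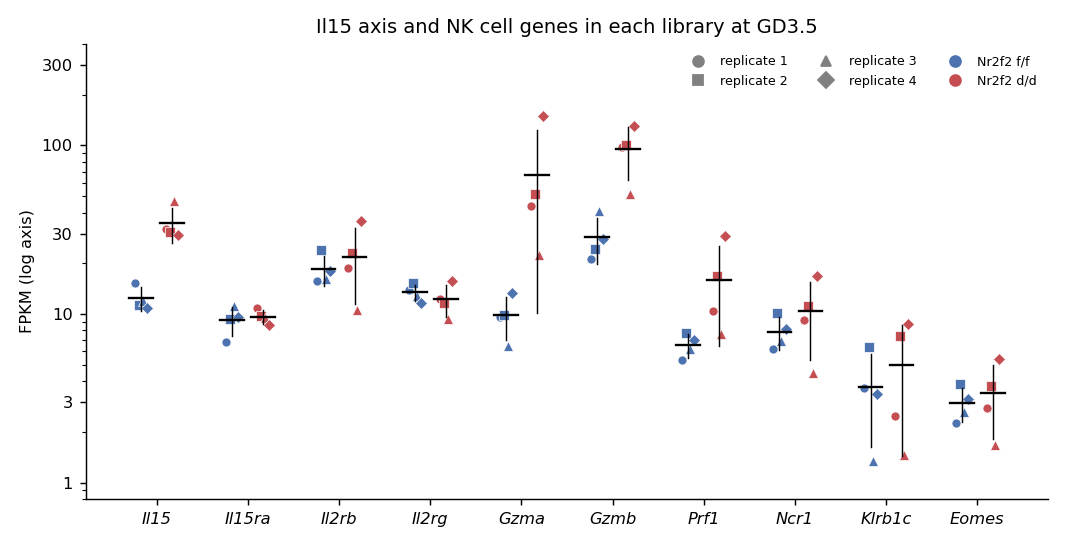
Levels of the 10 genes in each library at GD3.5, in FPKM on a log axis, with 1 symbol per library, Nr2f2 f/f in blue and Nr2f2 d/d in red. Horizontal lines are means and vertical bars 1 SD (n = 4). The Il15, Gzma and Gzmb points of the genotypes do not overlap, whereas those of Il15ra, Il2rb, Il2rg, Ncr1, Klrb1c and Eomes do.

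Il15 (chr8:82331632-82403222, minus strand, mm10) encodes the ligand. Nr2f2 f/f replicates 1 to 4 gave 15.3, 11.3, 12 and 10.9 FPKM, and Nr2f2 d/d replicates 1 to 4 gave 31.8, 30.5, 46.8 and 29.4 FPKM. The lowest Nr2f2 d/d library was thus at 29.4 FPKM and the highest Nr2f2 f/f library at 15.3 FPKM. The means were 12.4 ± 2.02 and 34.6 ± 8.19 FPKM (SD, n = 4), a log2 fold change of 1.43 with a standard error of 0.168 on the scale of log2(FPKM + 0.5). Without both of the least correlated libraries the log2 fold change was 1.24. Sums of markers of some tissue compartments differed between genotypes in the same libraries. The 5 epithelial markers summed to 440 to 492 FPKM for Nr2f2 f/f, against 602 to 704 for Nr2f2 d/d, the 5 stromal markers to 500 to 746 and 396 to 456, and the 4 endothelial markers to 137 to 184 and 75.6 to 100. Within these lists, Krt8 and Krt19 were higher in Nr2f2 d/d without overlap while Krt18, Epcam and Cdh1 overlapped, and the stromal Vim, Pdgfra, Pdgfrb and Hoxa10 overlapped as well, with Vim the most abundant at 380 ± 93.1 and 237 ± 44.3 FPKM. The 10 macrophage markers, with Cd163 under 0.5 FPKM throughout, overlapped between genotypes at 142 to 278 and 194 to 290 FPKM. Of 53 marker genes tested 3 (5.66%) rose and 4 (7.55%) fell, against 1.09% and 1.53% of all genes. Among them Krt8, an epithelial keratin, rose (limma adjusted p = 0.00829, also in all 8 fits that left out 1 library). Hand2, a stromal factor, and the endothelial genes Pecam1, Cdh5 and Kdr fell (limma adjusted p = 0.0149 to 0.0457), and all 4 lost the call without Nr2f2 f/f replicate 1 and without either of Nr2f2 d/d replicates 1 and 2, at 0.0527 to 0.139. With 1 library left out, Cdh5 passed in 5 of the 8 fits, Pecam1 in 4, and Hand2 and Kdr in 2 each. The part of these compartments in the Il15 values was not tested.

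Il15ra (chr2:11705290-11734317, plus strand), the chain that presents IL15, did not follow its ligand. Its values were 6.79, 9.38, 11.2 and 9.6 FPKM for Nr2f2 f/f replicates 1 to 4, against 10.8, 9.7, 9.5 and 8.6 FPKM for Nr2f2 d/d replicates 1 to 4. The means of 9.24 ± 1.82 and 9.65 ± 0.901 FPKM (SD, n = 4) differed by less than the spread between libraries, with a log2 fold change of 0.08 (SE 0.144), and of 0.09 without both of the least correlated libraries. The Il15ra to Il15 ratio in FPKM was 0.443, 0.83, 0.931 and 0.885 for the Nr2f2 f/f libraries, against 0.34, 0.318, 0.203 and 0.292 for the Nr2f2 d/d libraries. There was therefore less presenting-chain mRNA per ligand mRNA in every Nr2f2 d/d library, at a mean of 0.288 ± 0.0601 against 0.772 ± 0.223.

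The signalling chains on the responding cell also overlapped between genotypes. Il2rb (chr15:78479256-78495271, minus strand) encodes the beta chain shared with the IL2 receptor, and stood at 15.7, 23.9, 16.2 and 17.9 FPKM for Nr2f2 f/f replicates 1 to 4, against 18.7, 22.9, 10.5 and 35.6 FPKM for Nr2f2 d/d replicates 1 to 4. The Nr2f2 d/d libraries held both the lowest and the highest value, and the log2 fold change was 0.14 (SE 0.33). It was 0.57 without both of the least correlated libraries. Il2rg (chrX:101264378-101268255, minus strand), the common gamma chain, stood at 13.9, 15.3, 12.8 and 11.7 FPKM for Nr2f2 f/f, against 12.2, 11.7, 9.33 and 15.6 FPKM for Nr2f2 d/d, with a log2 fold change of -0.15 (SE 0.151), and of 0.03 without both of the least correlated libraries. Of the exonic bases of Il2rg, 30.5% are shared with the model Gm20489 on the same strand, so its value may miss or include fragments of that model.

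Of 12 other genes of IL15 signal transduction, 2 rose and 0 fell in Nr2f2 d/d by limma at an adjusted p under 0.05, against 1.09% and 1.53% of all genes tested. An unadjusted p under 0.05 was met by 5 of the 12, against 21.2% of all genes, and the median log2 fold change was 0.01 against -0.0191 over all genes. Stat5a, a transcription factor activated by the receptor, rose from 7.91 ± 0.805 to 13.4 ± 0.601 FPKM (log2 fold change 0.73, SE 0.0854, limma adjusted p = 0.00894). Its values were higher in all 4 Nr2f2 d/d libraries, and it passed in all 8 fits that left out 1 library. Cish, a feedback inhibitor that STAT5 induces, rose from 5.76 ± 1.14 to 9.67 ± 1.25 FPKM (log2 fold change 0.71, SE 0.146, limma adjusted p = 0.0481). Its groups did not overlap either, but the call was lost without any one of the 8 libraries, at adjusted p of 0.0619 to 0.139. The 2 most abundant genes of the list, Mcl1, a survival factor of NK cells, and Stat3, had log2 fold changes of -0.08 (SE 0.0724) and -0.14 (SE 0.143). Jak1, Jak3, Stat5b, Socs1, Socs2, Socs3, Pim1 and Bcl2 were added to the plot of the pathway as steps of the same chain after their values were seen. Of these, Socs1, another feedback inhibitor, did not overlap between groups, with means of 8.09 ± 1.88 and 13 ± 3.91 FPKM and a limma adjusted p of 0.172. Other genes of the list that STAT5 or related factors induce overlapped between genotypes. They were Socs2, Socs3, Pim1 and Bcl2, with log2 fold changes of 0.09 (SE 0.14), -0.16 (SE 0.422), 0.24 (SE 0.212) and -0.30 (SE 0.115) and limma adjusted p of 0.196 to 0.859. STAT5 and its targets act downstream of prolactin, growth hormone and several cytokines as well, in many cell types.

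**Figure D2:**
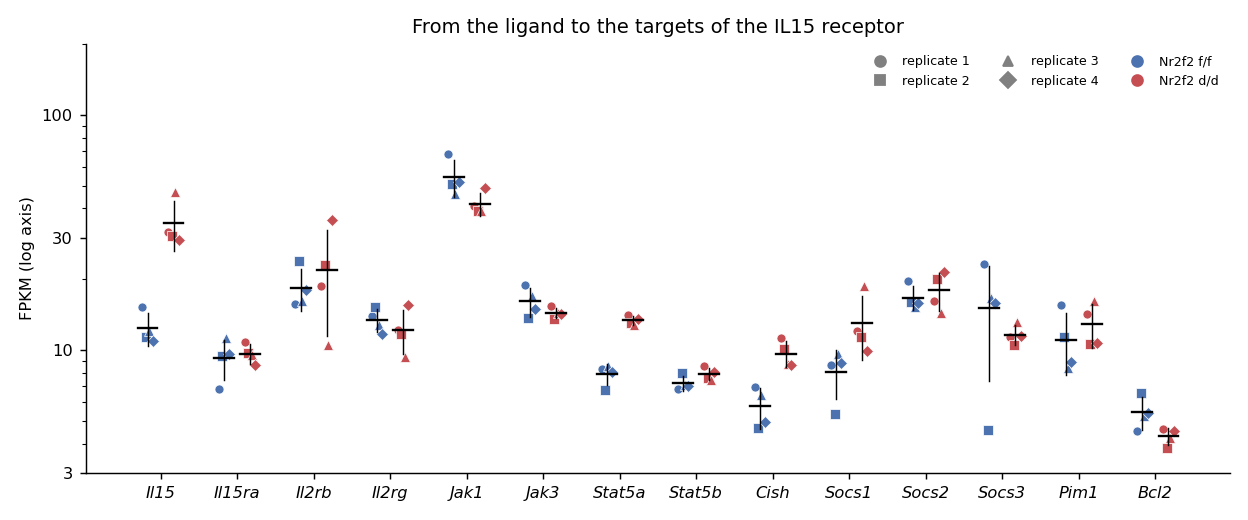
From the ligand through the receptor chains and kinases to STAT5 and its target genes, in FPKM on a log axis, with 1 symbol per library (Nr2f2 f/f in blue, Nr2f2 d/d in red), means as horizontal lines and 1 SD as vertical bars (n = 4). Il15, Stat5a, Cish and Socs1 separate the genotypes, while Il15ra, Il2rb, Il2rg, Jak1, Jak3, Stat5b, Socs2, Socs3, Pim1 and Bcl2 overlap.

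The 3 granule genes encode what an NK cell releases onto its target. Gzma (chr13:113093825-113100981, minus strand), a tryptase, stood at 9.61, 9.92, 6.46 and 13.3 FPKM for Nr2f2 f/f replicates 1 to 4, against 43.5, 51.7, 22.4 and 150 FPKM for Nr2f2 d/d replicates 1 to 4. Every Nr2f2 d/d library was above every Nr2f2 f/f library, but the Nr2f2 d/d libraries varied widely among themselves, with a coefficient of variation of 84.7% against 28.5%. The means were 9.83 ± 2.8 and 66.8 ± 56.6 FPKM (SD, n = 4), and the log2 fold change was 2.40 (SE 0.514). It lay between 1.90, without Nr2f2 d/d replicate 4, and 2.80, without Nr2f2 d/d replicate 3, when 1 library was left out, and was 2.82 without both of the least correlated libraries.

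Gzmb (chr14:56258838-56262260, minus strand), which cleaves after aspartate and activates caspases, had the highest mean of the 10 genes in both genotypes, although Gzma was above it in Nr2f2 d/d replicate 4. It stood at 21.1, 24.4, 41.1 and 27.7 FPKM for Nr2f2 f/f replicates 1 to 4, against 97.3, 101, 51.4 and 131 FPKM for Nr2f2 d/d replicates 1 to 4. The groups did not overlap, with Nr2f2 d/d replicate 3 the nearest to the Nr2f2 f/f libraries. The log2 fold change was 1.69 (SE 0.303), and 1.90 without both of the least correlated libraries.

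Prf1 (chr10:61297833-61304680, plus strand), which encodes perforin, stood at 5.3, 7.72, 6.21 and 6.97 FPKM for Nr2f2 f/f replicates 1 to 4, against 10.4, 16.8, 7.59 and 29 FPKM for Nr2f2 d/d replicates 1 to 4. Only Nr2f2 d/d replicate 3 fell within the Nr2f2 f/f range. The means were 6.55 ± 1.04 and 15.9 ± 9.53 FPKM (SD, n = 4), with a log2 fold change of 1.06 (SE 0.365), and of 1.42 without both of the least correlated libraries.

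The stretches upstream of these 3 genes and of Ncr1 are shown so that the genes that differed between genotypes can be set beside the surface marker that overlapped. Each holds the 250 bases before the start of the gene in RefSeq (GRCm38.p6), written 5′ to 3′ on the strand of the gene. Both strands were searched for AGGTGT, the core bound by T-box factors such as EOMES and T-bet, for TTCNNNGAA, the form bound by STAT5, and for AGGTCA, the core bound by NR2F2 and many other nuclear receptors. Matches are in capitals. Entries of this kind were matched for 8 of the 10 genes, all except Il15 and Il2rb.
Gzma, chr13:113100982-113101231, minus strand: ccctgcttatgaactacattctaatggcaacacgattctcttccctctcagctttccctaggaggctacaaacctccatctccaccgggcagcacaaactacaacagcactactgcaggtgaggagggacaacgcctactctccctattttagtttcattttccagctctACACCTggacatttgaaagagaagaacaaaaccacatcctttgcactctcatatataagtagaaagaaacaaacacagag
Gzmb, chr14:56262335-56262584, minus strand: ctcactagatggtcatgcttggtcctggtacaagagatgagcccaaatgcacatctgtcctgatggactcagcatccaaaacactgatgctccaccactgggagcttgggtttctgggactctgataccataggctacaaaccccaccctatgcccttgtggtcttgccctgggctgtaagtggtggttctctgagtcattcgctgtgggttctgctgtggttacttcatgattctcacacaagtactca
Prf1, chr10:61297586-61297835, plus strand: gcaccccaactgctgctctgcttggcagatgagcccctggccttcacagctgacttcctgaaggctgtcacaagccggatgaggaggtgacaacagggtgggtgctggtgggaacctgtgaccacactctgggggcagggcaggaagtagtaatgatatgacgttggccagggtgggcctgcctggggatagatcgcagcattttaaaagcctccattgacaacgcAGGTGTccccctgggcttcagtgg
Ncr1, chr7:4337465-4337714, plus strand: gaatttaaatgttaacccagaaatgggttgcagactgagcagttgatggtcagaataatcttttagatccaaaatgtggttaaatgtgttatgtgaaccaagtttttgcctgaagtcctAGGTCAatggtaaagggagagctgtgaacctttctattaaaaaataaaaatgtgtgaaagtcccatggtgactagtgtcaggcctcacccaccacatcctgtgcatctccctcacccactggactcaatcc

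The window of Gzma held the T-box core on its opposite strand (ACACCT) at bases -80 to -75 from the start, and that of Prf1 held AGGTGT at -24 to -19. The window of Ncr1 held AGGTCA at -131 to -126, and that of Gzmb held none of these letters. Among the windows not printed, 1 of the 2 of Il15ra, which overlapped between genotypes, also held AGGTGT, at -223 to -218. Over 32851 windows of the same length, 11.8% held the T-box core, 7.02% the STAT form and 14% the nuclear receptor core. The matches describe these windows only, and no binding was measured in these libraries.

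The surface receptors of NK cells overlapped between genotypes. Ncr1 (chr7:4337724-4345164, plus strand) encodes NKp46, an activating receptor that marks NK cells in the mouse. It stood at 6.21, 10.2, 6.95 and 8.12 FPKM for Nr2f2 f/f replicates 1 to 4, against 9.26, 11.2, 4.44 and 16.8 FPKM for Nr2f2 d/d replicates 1 to 4. The lowest and the highest of the 8 values were both from Nr2f2 d/d, and the log2 fold change was 0.27 (SE 0.35). It lay between 0.01 and 0.61 when 1 Nr2f2 d/d library, replicate 4 or replicate 3, was left out, and was 0.73 without both of the least correlated libraries.

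Klrb1c (chr6:128778485-128789215, minus strand), the NK1.1 antigen of C57 mice, was the most variable of the 10 in Nr2f2 f/f, with a coefficient of variation of 56.1%. It stood at 3.64, 6.39, 1.35 and 3.37 FPKM for Nr2f2 f/f replicates 1 to 4, against 2.49, 7.39, 1.46 and 8.71 FPKM for Nr2f2 d/d replicates 1 to 4. The log2 fold change of 0.26 (SE 0.574) was smaller than its error. It was -0.08 without Nr2f2 d/d replicate 4 or without Nr2f2 f/f replicate 3, and 0.96 without both of the least correlated libraries. Klrb1c belongs to a family of similar genes, and 13.9% of its exonic bases are shared with the model Gm44511, so fragments may be divided between them.

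Eomes (chr9:118478212-118486132, plus strand), a T-box factor that NK cells need to mature, had the lowest mean of the 10 genes in both genotypes, although Klrb1c was below it in Nr2f2 f/f replicate 3 and in Nr2f2 d/d replicates 1 and 3. It stood at 2.27, 3.85, 2.62 and 3.15 FPKM for Nr2f2 f/f replicates 1 to 4, against 2.77, 3.76, 1.68 and 5.43 FPKM for Nr2f2 d/d replicates 1 to 4, with a log2 fold change of 0.10 (SE 0.295), and of 0.46 without both of the least correlated libraries. The Nr2f2 d/d range enclosed the whole Nr2f2 f/f range. Of its exonic bases, 2.84% overlap Gm33460 on the opposite strand.

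Among the Nr2f2 d/d libraries, replicate 3 was the lowest and replicate 4 the highest for Il2rb, Il2rg, Gzma, Gzmb, Prf1, Ncr1, Klrb1c and Eomes. Il15 ran the other way, highest in replicate 3 at 46.8 FPKM and lowest in replicate 4 at 29.4 FPKM. Among the Nr2f2 f/f libraries, replicate 2 was the highest for Il2rb, Il2rg, Prf1, Ncr1, Klrb1c and Eomes, but not for Gzma, Gzmb or Il15. The least correlated libraries thus held the highest values of 6 of the 10 genes in one group and the lowest values of 8 in the other.

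With levels set over Ncr1 in the same library, the granule genes separated the genotypes and the other NK cell genes did not (see the plot of ratios to Ncr1). Prf1 per FPKM of Ncr1 was 0.854, 0.761, 0.895 and 0.858 for Nr2f2 f/f replicates 1 to 4, against 1.12, 1.5, 1.71 and 1.73 for Nr2f2 d/d replicates 1 to 4. On this scale even Nr2f2 d/d replicate 3 was above every Nr2f2 f/f library. Gzma per Ncr1 was 0.931 to 1.64 for Nr2f2 f/f, against 4.61 to 8.92 for Nr2f2 d/d, and Gzmb per Ncr1 was 2.4 to 5.91 and 7.8 to 11.6. Eomes per Ncr1 stayed within 0.366 to 0.388 and 0.299 to 0.379, and Il2rb per Ncr1 within 2.21 to 2.53 and 2.02 to 2.36. Both overlapped, but their means were lower in Nr2f2 d/d, at 0.334 against 0.378 for Eomes and 2.14 against 2.35 for Il2rb. The range of Ncr1 itself, 4.44 to 16.8 FPKM, was thus much wider than that of either ratio. With Klre1, another NK cell receptor of the marker list, as the divisor, Gzma, Gzmb and Prf1 also separated the genotypes, with Prf1 at 0.545 ± 0.0729 and 1.12 ± 0.158 (SD, n = 4). Ncr1 per Klre1 overlapped at 0.594 to 0.702 for Nr2f2 f/f and 0.69 to 0.845 for Nr2f2 d/d, with the higher mean in Nr2f2 d/d. The divisor Ncr1 may thus itself shift between genotypes, which was not tested. These ratios come from the contrast that the genes were chosen from, and they carry no test.

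**Figure D3:**
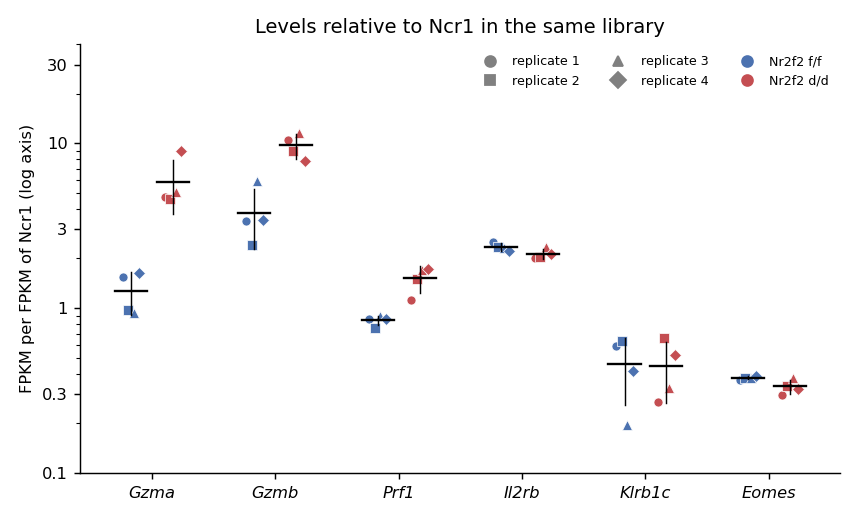
FPKM of 6 genes divided by the FPKM of Ncr1 in the same library, on a log axis, with 1 symbol per library (Nr2f2 f/f in blue, Nr2f2 d/d in red), means as horizontal lines and 1 SD as vertical bars (n = 4). Gzma, Gzmb and Prf1 per Ncr1 do not overlap between genotypes, and Il2rb, Klrb1c and Eomes per Ncr1 do.

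In order of mean FPKM, Nr2f2 f/f uteri ran Gzmb, Il2rb, Il2rg, Il15, Gzma, Il15ra, Ncr1, Prf1, Klrb1c and Eomes, from 28.6 to 2.97. Of the neighbours in this order, Il2rb and Il2rg had ranges that did not overlap, and all other neighbours did overlap. In Nr2f2 d/d the order was Gzmb, Gzma, Il15, Il2rb, Prf1, Il2rg, Ncr1, Il15ra, Klrb1c and Eomes, from 95.1 to 3.41, with all neighbours overlapping in range. Gzma, Il15 and Prf1 thus stood higher in the order of Nr2f2 d/d.

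Genes closest to 3 of the members over the 8 libraries were ranked by the root mean square difference of the centred log2 values, in log2 units. Closest to Il15 were Bace2 (0.172), Wnt5b (0.226), Ggt5 (0.247) and D630033O11Rik (0.252), where the spread of Il15 about its own mean was 0.753. Closest to Ncr1 were Il2rb (0.0931), Atp8b4 (0.124), Ptprcap (0.133) and Klre1 (0.142), against a spread of 0.514. Closest to Gzma were Calb2 (0.458), Gpr83 (0.609), H2-M9 (0.648) and Padi2 (0.683), against a spread of 1.41. The neighbours of Ncr1 thus included a second member. In log2 units no gene followed Gzma as closely as these followed Ncr1. The spread of Gzma was also the larger, and such differences grow with the spread. All points share the same 8 libraries and 2 genotypes.

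Gzmc, Gzmd, Gzme, Gzmf and Gzmg are near-identical genes of the cluster that also holds Gzmb. Of the 4 Nr2f2 d/d libraries, 2 stood above every Nr2f2 f/f library for Gzmc, Gzmd and Gzmf, and 3 did so for Gzme and Gzmg. Gzmd stood at 2.69, 10.8, 6.57 and 2.13 FPKM for Nr2f2 f/f replicates 1 to 4, against 10.1, 48.3, 2.59 and 140 FPKM for Nr2f2 d/d replicates 1 to 4. Nr2f2 d/d replicate 4 was the highest and replicate 2 the next for all 5 genes, whereas Nr2f2 d/d replicate 3 lay within the Nr2f2 f/f range for Gzmc, Gzmd, Gzme and Gzmg and below it for Gzmf. Their log2 fold changes were 1.04 to 2.82 with standard errors of 0.786 to 1.33, and 0 of the 5 passed (limma adjusted p = 0.205 to 0.502). That of Gzmd was 2.10, but 1.20 without Nr2f2 d/d replicate 4 and 3.03 without replicate 3, and that of Gzmc was 1.04, but 0.47 and 1.61. Gzme, Gzmf and Gzmg are named after their values were seen, and fragments of these genes may have been divided among them.

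**Figure D4:**
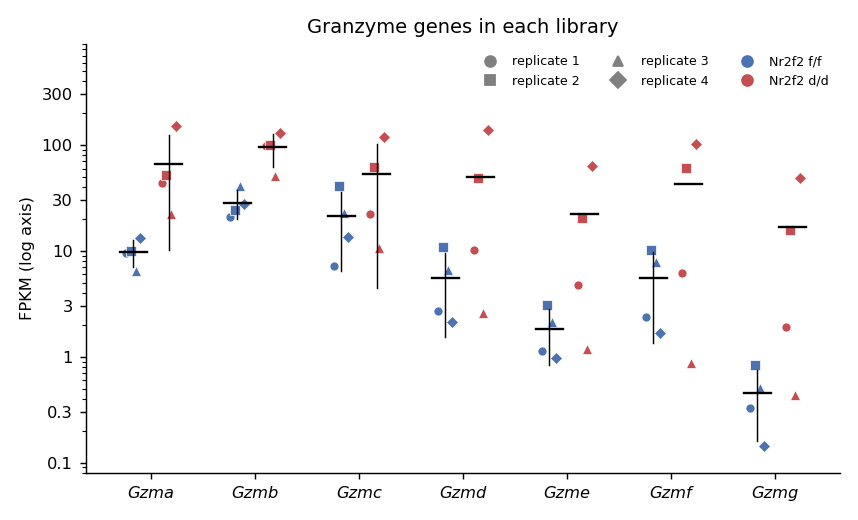
Granzyme genes in each library, in FPKM on a log axis, with 1 symbol per library (Nr2f2 f/f in blue, Nr2f2 d/d in red), means as horizontal lines and 1 SD as vertical bars (n = 4), left out where the SD exceeds the mean. Gzma and Gzmb do not overlap between genotypes, while Gzmc to Gzmg were highest in Nr2f2 d/d replicates 2 and 4 and overlapped with Nr2f2 f/f in Nr2f2 d/d replicate 3, replicate 1 or both.

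Of 131 other genes on 10 lists of the IL15 pathway and of NK cell biology, 103 were tested, of which 3 (2.91%) rose and 0 fell in Nr2f2 d/d, against 1.09% and 1.53% of all genes tested. The counts of unadjusted p under 0.05 that follow stand against 21.2% of all genes tested. Of the 24 NK cell receptors tested, 0 passed in either direction by limma and 3 had an unadjusted p under 0.05, and their median log2 fold change was 0.01. The most abundant were Klrd1, the CD94 chain, and Klra7, an inhibitory Ly49 receptor, with log2 fold changes of -0.08 (SE 0.476) and -0.11 (SE 0.472). Of 11 granzymes and other effector molecules 0 passed and 1 had an unadjusted p under 0.05, and the median log2 fold change was 0.45.

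Beside Stat5a and Cish, the other gene that rose was Serpinb6b, an inhibitor of granule proteases and 1 of 9 genes of the granule machinery, of which it alone had an unadjusted p under 0.05. It rose from 7.12 ± 0.94 to 10.6 ± 1.01 FPKM (log2 fold change 0.55, SE 0.11, limma adjusted p = 0.0454), with no overlap between groups. The call was lost in 7 of 8 fits that left out 1 library and was kept without Nr2f2 d/d replicate 3. Srgn, the granule proteoglycan serglycin, and Lamp1, a lysosomal membrane protein, had log2 fold changes of 0.21 (SE 0.154) and 0.11 (SE 0.0801).

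Of the 10 transcription factors of NK cells tested, 0 passed in either direction by limma and 5 had an unadjusted p under 0.05, and the median log2 fold change was 0.00. Id2 and Nfil3, both needed for NK cell development and both expressed outside lymphocytes too, had log2 fold changes of 0.63 (SE 0.202, limma adjusted p = 0.135) and -0.51 (SE 0.268, limma adjusted p = 0.318). Groups without overlap were seen for 1 of the 10 as higher and 2 as lower, against 5.49% and 9.91% of all genes. The higher one was Id2, at 57.9 ± 16.2 and 87.8 ± 11.9 FPKM. The lower ones were Prdm1 and Zeb2, factors of late NK cell maturation named after their values were seen, at 16.9 ± 2.92 and 10.6 ± 2.26 FPKM (limma adjusted p = 0.0841) and at 5.08 ± 0.363 and 3.74 ± 0.502 FPKM (limma adjusted p = 0.0764). Of 7 genes of tissue residence 0 passed by limma and 3 had an unadjusted p under 0.05. Cxcr6, a chemokine receptor of resident lymphocytes named after its values were seen, was at 1.19 ± 0.301 and 3.02 ± 1.05 FPKM without overlap (limma adjusted p = 0.0527). Entpd1 (CD39) had a log2 fold change of -0.38 (SE 0.109) and passed only without Nr2f2 d/d replicate 4, at a limma adjusted p of 0.0314. As RNA of the whole organ was read, the values of Prdm1, Zeb2 and Entpd1 need not be those of NK cells. Cd7 had a log2 fold change of -0.49 (SE 0.812), which turned to 0.19 without Nr2f2 d/d replicate 3 and to 0.53 without both of the least correlated libraries.

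Cytokine genes that act beside IL15 gave 0 calls by limma as well, with an unadjusted p under 0.05 for 1 of 3 in the common gamma chain family and for 1 of 7 in the others. In that family Il4ra was at 13.2 ± 2.69 and 24.3 ± 7.47 FPKM without overlap (limma adjusted p = 0.0815) and Il21r had a log2 fold change of 0.03 (SE 0.198). Il2, which shares the beta and gamma chains with IL15, was at means of 0.036 and 0.0318 FPKM and was not tested. Il4ra passed without both of the least correlated libraries, at a log2 fold change of 0.50 and a limma adjusted p of 0.0446. Of the others the most abundant, Tgfb1 and Il18, had log2 fold changes of 0.06 (SE 0.0928) and 0.24 (SE 0.124). Il12rb1, named after its values were seen, was at 1.02 ± 0.156 and 1.88 ± 0.542 FPKM without overlap (limma adjusted p = 0.103).

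Among ligands of NK cell receptors, 0 of 9 passed by limma and 3 had an unadjusted p under 0.05, with H2-T23 (Qa-1, the ligand of the CD94 receptors) at a log2 fold change of 0.39 (SE 0.278) and Clec2d, a ligand of the Klrb1 receptors, at -0.09 (SE 0.127). Among 11 chemokines and receptors that attract NK cells 0 passed and 4 had an unadjusted p under 0.05. The most abundant, Cxcl14 and Cxcl12, had log2 fold changes of -0.06 (SE 0.214) and -0.73 (SE 0.267, limma adjusted p = 0.177). In this list 4 of the 11 had groups without overlap, all higher in Nr2f2 d/d, against 5.49% of all genes. They were Ccl3, Ccl4, Cxcl9 and Cxcl10, named after their values were seen, with log2 fold changes of 0.86, 1.34, 0.57 and 0.31 and limma adjusted p of 0.0696, 0.101, 0.11 and 0.246.

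**Figure D5:**
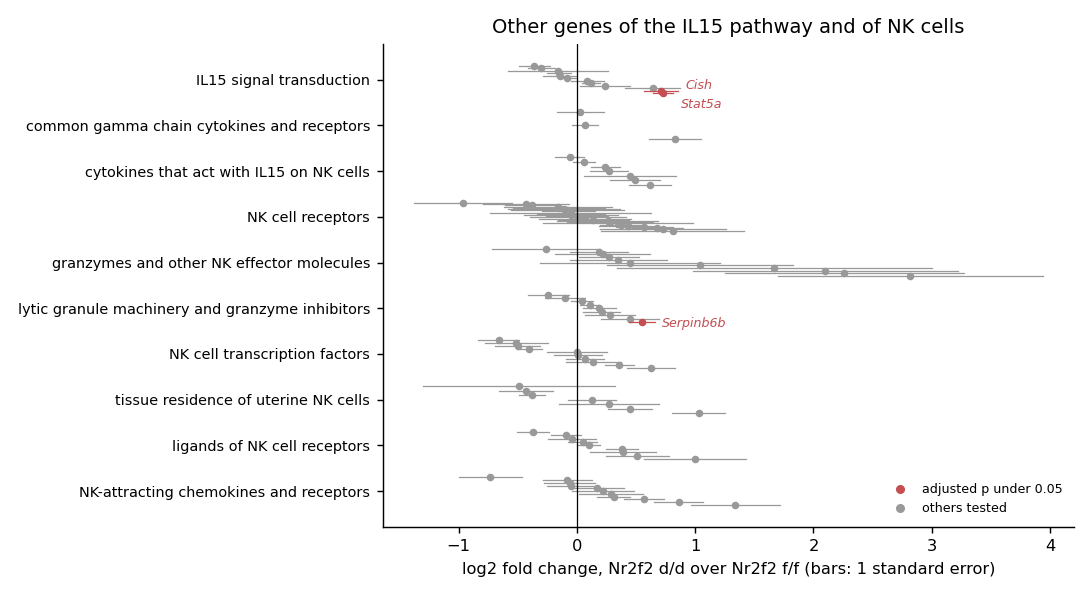
Log2 fold change, Nr2f2 d/d over Nr2f2 f/f, of the 103 tested genes on 10 lists of the IL15 pathway and of NK cells, without the 10 members. Points are genes, bars are 1 standard error, and red marks genes with a limma adjusted p under 0.05 (Stat5a, Cish and Serpinb6b).

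Markers of other lymphocytes and of leukocytes as a whole were read beside these values, since T cells also make granzymes and perforin. The 9 T cell markers in the table summed to 2.45 to 4.03 FPKM for Nr2f2 f/f, against 5.55 to 10.7 for Nr2f2 d/d, without overlap. Cd3d rose from 0.374 ± 0.0661 to 0.964 ± 0.144 FPKM (limma adjusted p = 0.0231). Its call was lost without Nr2f2 f/f replicate 1 or 4 or Nr2f2 d/d replicate 1 or 2, at up to 0.0746. Cd3g, the most abundant, was at 1.5 ± 0.324 and 4.16 ± 2.34 FPKM without overlap (limma adjusted p = 0.0996), and like Gzma it was highest in Nr2f2 d/d replicate 4, at 7.52 FPKM. Cd8a and Cd8b1, the chains of CD8 on cytotoxic T cells, were near 0 at means of 0.0862 and 0.153 FPKM and of 0.161 and 0.152 FPKM, and both overlapped. Cd28 overlapped too, at means of 0.47 and 0.41 FPKM. The 5 B cell markers summed to 1.15 to 1.6 and 2.29 to 4.51 FPKM, and Cd79b rose (limma adjusted p = 0.0398, kept only without Nr2f2 d/d replicate 4 among the 8 fits that left out 1 library, and 0.054 to 0.111 in the others). Ms4a1 and Pax5, which define B cells, were near 0. The 5 markers of all leukocytes overlapped at 103 to 159 and 106 to 245 FPKM. The 30 NK cell receptors summed to 63.2 to 123 and 35.6 to 177 FPKM. The 7 neutrophil markers overlapped in sum at 3.74 to 21.6 and 18.8 to 42.3 FPKM, with Mpo under 0.5 FPKM throughout. Of them S100a8, S100a9 and Cxcr2 were higher in Nr2f2 d/d without overlap, S100a8 at 2.79 ± 2.2 and 12.3 ± 4.92 FPKM (limma adjusted p = 0.0689) and S100a9 at 3.28 ± 3.12 and 14 ± 5.86 FPKM (limma adjusted p = 0.0912). Retnlg, another neutrophil marker named after its values were seen, differed the other way, at 2.38 ± 1.72 and 0.536 ± 0.268 FPKM with overlap (log2 fold change -1.32, SE 0.418, limma adjusted p = 0.131). The part of T cells and neutrophils in the granule genes was not tested.

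Of the 2 most abundant markers of the remaining lists, those other than Krt8 did not pass in limma. Their log2 fold changes were 0.31 for C1qa and 0.41 for C1qb (macrophages), 0.39 for Cd52 and 0.38 for Coro1a (all leukocytes), 0.05 for Itgax and -0.72 for Cd209a (dendritic cells) and 0.02 for Cma1 and 0.01 for Tpsb2 (mast cells). For the other innate lymphoid cells they were 0.68 for Il17rb (SE 1.17) and -1.30 for Areg (SE 1.13). Il1rl1 and Il23r of the same list stayed under 0.5 FPKM in every library while Il17rb averaged 172 FPKM, so Il17rb and Areg are not read here as a measure of these cells. That of Il17rb turned to -0.52 without Nr2f2 f/f replicate 2, which held 6.88 FPKM where the other Nr2f2 f/f libraries held 188 to 255, and that of Areg lay between -2.39 without that library and -0.66 without Nr2f2 f/f replicate 1. The others were 0.11 for Acta2 and 0.05 for Myh11 (smooth muscle), -0.66 for Vim and -0.09 for Hoxa10 (stroma) and 0.06 for Krt18 (epithelium, beside Krt8). Of the 48 list genes named by rule and fitted, 14 changed sign in at least 1 fit that left out 1 library, all 14 uncalled and with log2 fold changes smaller than their errors. Blk, next to Cd79b among the B cell markers, was at means of 0.305 and 0.694 FPKM and was not tested.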

How the data were processed

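Whole uterine RNA at GD3.5 was sequenced by the authors from Nr2f2 f/f and Nr2f2 d/d mice, 4 libraries each (TruSeq v2 libraries, paired-end reads). The submitters' processing notes name cutadapt 1.12, STAR 2.5.2b, featureCounts 1.5.0-p1, Cufflinks 2.0.2 and mm10. The authors deposited FPKM for 24963 genes, of which 3893 were at 0 in all libraries. How the FPKM were scaled, on which annotation and with which strand setting, is not given in the sources used here. Without strand, overlapping genes cannot be told apart. The study's own test on counts was not used here. FPKM are relative to a library's total, so very abundant transcripts shift all others.

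Samples were grouped by GEO's labels, and replicate numbers are those of the titles. Tests were made on log2(FPKM + 0.5), a scale on which changes of low genes come out smaller. A gene needed a mean of 0.5 FPKM or more, which 14323 met. They were fitted with limma 3.58.1 in R 4.3.3 (lmFit, then eBayes with its trend option, two-sided) over all 8 libraries, with Benjamini-Hochberg adjustment over all of them and a threshold of 0.05. A log2 fold change is Nr2f2 d/d minus Nr2f2 f/f. The fit called 375 genes (156 higher and 219 lower, but 192 and 172 after median-ratio scaling and 180 and 147 without Nr2f2 d/d replicate 4), and 3031 had an unadjusted p under 0.05. On simulated data for 14323 genes it recovered 88 of 107 genes changed 2-fold and 85 of 93 changed 4-fold, with 9 false calls. The simulated noise was normal and independent between genes, at each gene's own residual spread. In the real libraries NK cell genes rose and fell together, so these shares may not hold for them. Depth was reckoned as the total at which FPKM of single-exon genes came out whole (86.6% to 90.7% within 0.1 of a fragment, against medians of 15.2% to 16.9% at other totals).

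The members and the gene lists were chosen with earlier results of these data known. The text names the members, in each list the genes that passed and the 2 highest in mean FPKM, Nr2f2, and for Il15, Gzma and Ncr1 the 4 nearest genes, with exceptions stated where they occur. Gene positions are from GENCODE vM21 (mm10) and upstream sequences from RefSeq (GRCm38.p6). The alternatives were other pseudocounts, filters, scalings and moderations, a replicate block, and each library left out. Leaving out both of the least correlated libraries was added after seeing the data. One marker gene is not reported here. Tables were prepared with Python 3.11.15.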

Additional observations from a re-analysis of the deposited data

Results flagged for a closer look

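In 38 groups of 4 libraries, the gap of the highest or lowest value to its neighbour was divided by the range of the group. It passed Dixon's critical ratio at the 95% level in 2 groups, and chance passes about 1 in 20 groups. Il15 in Nr2f2 d/d replicate 3 stood above the other 3 libraries of its group, at 46.8 FPKM and a ratio of 0.864. Gzma per FPKM of Ncr1 in Nr2f2 d/d replicate 4 stood above the other 3, at 8.92 and a ratio of 0.9.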

How the results depend on the processing

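The number of members past the adjusted threshold (2 as reported) was within 1.5 times of that under every other pseudocount, filter, scaling and moderation run, and so was the number of all genes (375). The number of genes on the pathway and marker lists (10) was too, except without the filter on low values (5 of them, by limma). With each library left out in turn, 1 to 3 members, 42 to 348 of all genes and 2 to 9 list genes passed. The counts of members describe genes that were chosen from this contrast. The log2 fold changes of Il15ra, Il2rb, Klrb1c and Eomes, all smaller than their errors, changed sign in some of these fits. The fewest genes passed without Nr2f2 d/d replicate 2. Without both of the least correlated libraries, 3 members, 444 genes and 11 list genes passed. Scaling moved the median log2 fold change by 0.0276 at most. The cause of these differences was not tested.

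With the replicate number as a block, 1 gene, 0 members and 0 list genes passed for the numbers in the titles. With the block on the numbers that the descriptions share, over 6 libraries, 0 genes, 0 members and 0 list genes passed. The log2 fold change of Il15 was 1.43 with the title numbers, as without a block, and 1.24 with the description numbers. That of Gzmb was 1.69, again as without a block, and 1.90. Over all genes tested, libraries of the same number did not deviate together, with correlations of -0.20, -0.17, 0.05 and -0.04 for the titles. For the descriptions the correlations were -0.20, 0.15 and -0.04. The labels do not say what the numbers stand for, and a block that affects only some genes was not tested.

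For Il15ra, Il2rb, Il2rg, Ncr1, Klrb1c and Eomes, differences of the size of their standard errors (0.144 to 0.574 on the log2 scale) were not detectable with 4 libraries a group. Differences well above the standard error could go uncalled too. With all 8 libraries this held for Gzma at 2.40 (SE 0.514) and for Prf1 at 1.06 (SE 0.365).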
